A study of Mus musculus with 6 samples.

Results

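The fibrillar collagens outside the cartilage group were described in cells grown from mouse skull bone, with and without functional Fas ligand. Members were the rows of the deposited count table whose Ensembl identifier maps to Col1a1, Col1a2, Col3a1, Col5a1, Col5a2, Col5a3, Col24a1 or Col27a1. All 8 were found among 57180 rows, and all 8 had enough counts to be tested. The 3 wt libraries came from calvaria-derived cells of C57BL/6 mice, and the 3 gld libraries from cells of the congenic strain B6Smn.C3-Faslgld/J, homozygous for the gld mutation of Fasl and labelled FasL KO. Both groups were grown side by side in one osteogenic medium with ascorbate and β-glycerophosphate, to day 14 of differentiation and then for another 72 h as the labels describe it, and RNA was read as 3′ end tags. The aim named in the series title was to find extracellular matrix components that change when osteoblasts lack Fas ligand. Cells treated with added Fas ligand are mentioned in the design and were not analysed here. Age, number of mice and passage are not known from the labels, and the control mice are not described as littermates, so the mutation and other differences between the strains cannot be told apart. Whether replicate libraries represent different mice or dishes is not stated. The p-values therefore describe the spread of these libraries alone, which may be technical.

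Fibrillar collagens are made as procollagen chains with a long triple helix between a pair of propeptides. After hydroxylation, folding and export the propeptides are cut off, and the molecules pack into staggered fibrils that lysyl oxidases crosslink. Collagen I, built from the products of Col1a1 and Col1a2, is the main protein of bone matrix; collagen III, from Col3a1, copolymerises with it in soft tissue, and collagen V, from Col5a1, Col5a2 and Col5a3, sits inside collagen I fibrils, starts their assembly and limits their diameter. Collagens XXIV and XXVII, from Col24a1 and Col27a1, have shorter helices with interruptions, and the first is known from developing bone and the second from cartilage.

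Libraries held 2011173 to 3105322 counts in wt and 4048258 to 5245546 in gld. Fasl was listed at 0 counts in all 6 libraries, so its level checks neither label. Of 8692 genes tested, 847 rose and 668 fell at an adjusted p under 0.05 in edgeR's quasi-likelihood test with Benjamini-Hochberg adjustment, which is 17.4% of them. The osteoblast markers were weakly counted: Sp7 had no count in wt and 0, 16 and 4 in gld, Bglap had 1 count in gld 2 and Spp1 had 4 in gld 1, with none elsewhere. Of 10 osteoblast markers 5 could be tested, of which Ibsp, Dmp1 and Phex rose and Alpl fell, and their summed level was 186 to 265 CPM in wt and 76.8 to 83.3 CPM in gld. Alpl alone made up almost all of that sum in wt, at 179 to 259.6 CPM, and most of it in gld, at 42.2 to 53.0 CPM. A low count in this table need not mean little RNA. Over the 157 genes listed here as members, pathway genes or markers, 20 of the 65 with less than 50% of the last 300 exonic bases in a single annotated transcript were at 0 in every library, against 6 of the other 92. The median summed count was 20 and 1924 in these classes, a split chosen after the values were seen. Whether reads from shared ends were left out when genes were counted was not tested. Spp1, Phex and Runx2 have 0% of that end in a single transcript and Sp7 58.3%, while Bglap has 89.0%. In this bulk RNA, a change in the number of cells of a type and a change in RNA per cell cannot be told apart.

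Transcripts of collagens I and III were about 3 times as abundant in gld as in wt, while no collagen V gene passed the test. Col1a1, Col1a2, Col3a1 and Col27a1 rose, none of the 8 genes fell by the edgeR test (0 also at an unadjusted p under 0.05, and 0 in DESeq2 and limma-voom), and Col5a1, Col5a2, Col5a3 and Col24a1 did not pass. Among all tested genes 9.74% were called higher in gld and 7.69% lower, against 4 and 0 of 8 here. These shares are a description, because the 8 genes were chosen with earlier results of these data known. All 4 were at least 2-fold higher, as were 6.97% of all tested genes. The median log2 fold change was 0.98 over the 8 genes and 0.02 over all tested genes. The groups did not overlap for 5 of the 8, all higher in gld, beside 33.3% of all tested genes in either direction and 18.0% that lay wholly higher in gld. Together the 8 genes took 2.69% ± 0.51 (SD, n = 3) of a wt library's counts and 7.36% ± 0.35 of a gld library's, and their summed level went from 25778 ± 5538 to 78403 ± 3809 CPM. The 3 gld libraries lay above the 3 wt libraries for this sum, and a two-sided exact permutation test gave p = 0.1, the smallest that 3 against 3 libraries allow.

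**Figure D1:**
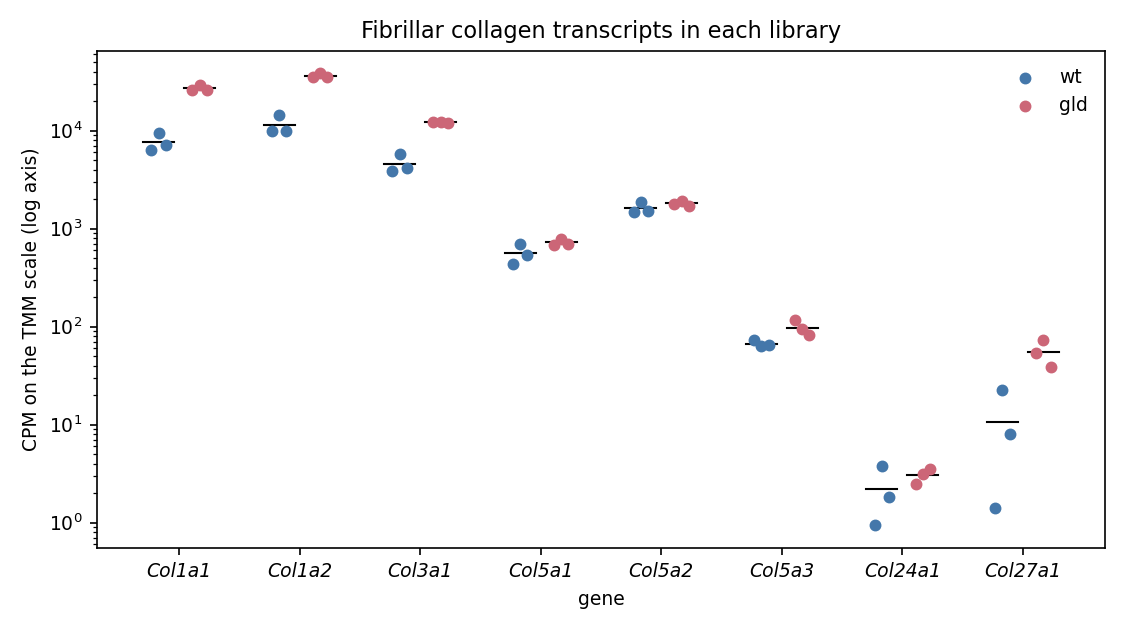
Level of each fibrillar collagen gene in each library, in CPM on the TMM scale on a log axis, with wt in blue, gld in red and a black line at each group's mean. Col1a1, Col1a2, Col3a1, Col5a3 and Col27a1 have all 3 gld libraries above all 3 wt libraries, and Col5a1, Col5a2 and Col24a1 overlap.

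Levels are given as CPM, tags of a gene relative to all tags, on the TMM scale, which adjusts library sizes for differences in composition. Because a 3′ end library gives about 1 tag per molecule whatever the transcript's length, CPM were not divided by length. Tags of different genes are still captured and assigned with different success, so an order of levels between genes is less certain than a difference of 1 gene between groups. In wt the order by mean CPM was Col1a2, Col1a1, Col3a1, Col5a2, Col5a1, Col5a3, Col27a1 and Col24a1, and gld had the same order. Of neighbours in that order, Col27a1 and Col24a1 overlapped in wt, and no others overlapped within a group.

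Col1a1 encodes the α1 chain of collagen I (GRCm38 chromosome 11, 94936224 to 94953042, plus strand). In wt it stood at 6294, 9473 and 7095 CPM, and the gld libraries had 26094, 29246 and 26091 CPM. Every gld library was above every wt library, and wt 2 was the highest of the wt libraries. A log2 fold change of 1.83 ± 0.12 (SE) was fitted, with a 95% interval of 1.57 to 2.10 and an edgeR adjusted p = 9.11e-08. By raw counts it was the 11th, 8th and 9th most abundant gene in wt 1, wt 2 and wt 3, and the 3rd in each gld library.

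Col1a2 encodes the α2 chain of collagen I (chromosome 6, 4504814 to 4541544, plus strand). The wt libraries had 9835, 14250.4 and 9877 CPM and the gld libraries 35239, 38323 and 35513 CPM. As for Col1a1, the groups were apart and wt 2 was the highest in wt. The log2 fold change was 1.68 ± 0.12 (SE), with an interval of 1.42 to 1.94 and an edgeR adjusted p = 1.67e-07. It ranked 5, 3 and 5 among all genes in the wt libraries and 2 in each gld library.

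Col3a1 encodes the single chain of collagen III (chromosome 1, 45311538 to 45349706, plus strand). Its wt levels were 3823, 5742 and 4149 CPM, against 12309, 12353 and 11980.0 CPM for gld. The gld libraries lay close together and above all wt libraries. The log2 fold change of 1.42 ± 0.12 (SE) had an interval of 1.15 to 1.68 and an edgeR adjusted p = 1.27e-06.

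Col5a2 lies next to Col3a1 on chromosome 1 (45374321 to 45503282, minus strand), with 24614 bases between the ends of both genes, which point towards each other. It encodes the α2 chain of collagen V. Although Col3a1 rose, its neighbour did not pass the test, with 1485, 1873 and 1527 CPM for wt against 1790.1, 1926.5 and 1715 CPM for gld. The wt 2 library lay within the gld range. The log2 fold change was 0.15 ± 0.11 (SE), the 95% interval ran from −0.08 to 0.39 and the edgeR adjusted p was 0.427. That interval holds no change as large as those of Col1a1, Col1a2 and Col3a1, whose lowest bound was 1.15. When libraries were scaled by size alone, which moved the median of all genes from 0.02 to −0.14, the value for Col5a2 was −0.00053. A same-strand gene model inside Col5a2, Gm38211, had 25 to 51 counts in wt and 41 to 101 in gld.

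Col5a1 encodes the α1 chain that the common forms of collagen V share (chromosome 2, 27886425 to 28039514, plus strand). The wt levels were 433, 700.3 and 538 CPM and the gld levels 680.3, 780.0 and 702 CPM. The highest wt library, wt 2, overlapped with gld. For this gene the log2 fold change came to 0.37 ± 0.15 (SE), with an interval of 0.04 to 0.70, an unadjusted p of 0.0295 and an edgeR adjusted p = 0.125. Without wt 2 the value was 0.57 with an edgeR adjusted p = 0.00692, over a range from 0.22 to 0.57 when each library was left out in turn. Without the filter on low counts the edgeR adjusted p was 0.0466 at a value of 0.39. An antisense transcript across its start, 2810430I11Rik, had 0 to 13 counts in wt and 3 to 49 in gld.

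Col5a3 encodes the α3 chain, a less common partner in collagen V (chromosome 9, 20770050 to 20815067, minus strand). The 3 wt libraries had 72.8, 63.2 and 65.4 CPM, and the 3 gld libraries 116, 94.7 and 81.3 CPM. The groups did not overlap, but gld 3 was close to wt 1. The log2 fold change was 0.54 ± 0.20 (SE), with an interval of 0.11 to 0.96 and an edgeR adjusted p = 0.0823.

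**Figure D2:**
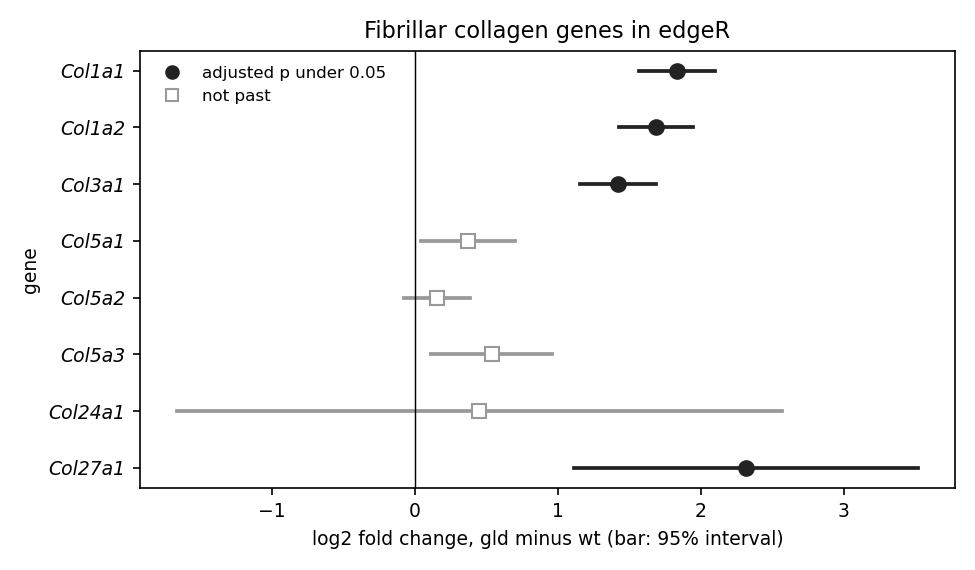
Log2 fold change of each gene, gld minus wt, from edgeR, with bars for the 95% interval, filled circles for an adjusted p under 0.05 and open squares for the rest. Col1a1, Col1a2 and Col3a1 sit between 1.42 and 1.83 with narrow bars, the collagen V genes between 0.15 and 0.54, and Col24a1 has the widest bar.

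Col27a1 encodes the chain of collagen XXVII (chromosome 4, 63214004 to 63334991, plus strand). Its counts were 3, 71 and 26 for wt against 213, 278 and 187 for gld, or 1.41, 22.4 and 7.98 CPM against 53.1, 73.3 and 38.4 CPM. The groups were apart, though relative to their mean the wt libraries ranged more widely than for any other of the 8 genes. The log2 fold change was 2.32 ± 0.56 (SE), with an interval of 1.11 to 3.52 and an edgeR adjusted p = 0.00892. The call was lost in DESeq2 (adjusted p = 0.0598 at 2.37) and in edgeR without wt 3 (adjusted p = 0.0517 at 2.12), and the value ran from 1.85 without wt 1 to 3.43 without wt 2.

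Col24a1 encodes the chain of collagen XXIV (chromosome 3, 145292472 to 145552011, plus strand). Counts were 2, 12 and 6 in wt and 10, 12 and 17 in gld. With so few counts the groups overlapped and the log2 fold change of 0.45 ± 0.98 (SE) had an interval from −1.67 to 2.57 (edgeR adjusted p = 0.843). A difference of 2-fold in either direction lies within that interval and was not excluded. It is also the 1 member whose last 300 exonic bases are almost wholly shared between annotated transcripts, with 1.7% in a single transcript against 100% for the other 7. A same-strand gene model inside it, D530037P16Rik, had no count in wt and 14, 2 and 18 in gld, as many as Col24a1 itself in some libraries.

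The make-up of the fibrillar collagen transcripts also differed between the groups. Of the summed counts of the 8 genes, the collagen I pair made up 73.5%, 73.8% and 73.0% in wt and 80.4%, 81.6% and 80.9% in gld. Col3a1 made up 17.4%, 17.9% and 17.8% in wt and 16.1%, 14.9% and 15.7% in gld. The collagen V chains made up 9.07%, 8.21% and 9.16% in wt and 3.39%, 3.38% and 3.28% in gld. Expressed per 100 collagen I tags, collagen V had 12.0 ± 0.78 tags in wt and 4.14 ± 0.08 in gld (SD, n = 3). The groups were apart for each of these 4 quantities, at p = 0.1 in the two-sided exact permutation test. Collagen I made up most of the sum, so a chain with an unchanged level loses share when collagen I rises. No background was computed for these quantities. For the ratio to Col1a1, the groups did not overlap for 92.1% of 6029 genes.

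**Figure D3:**
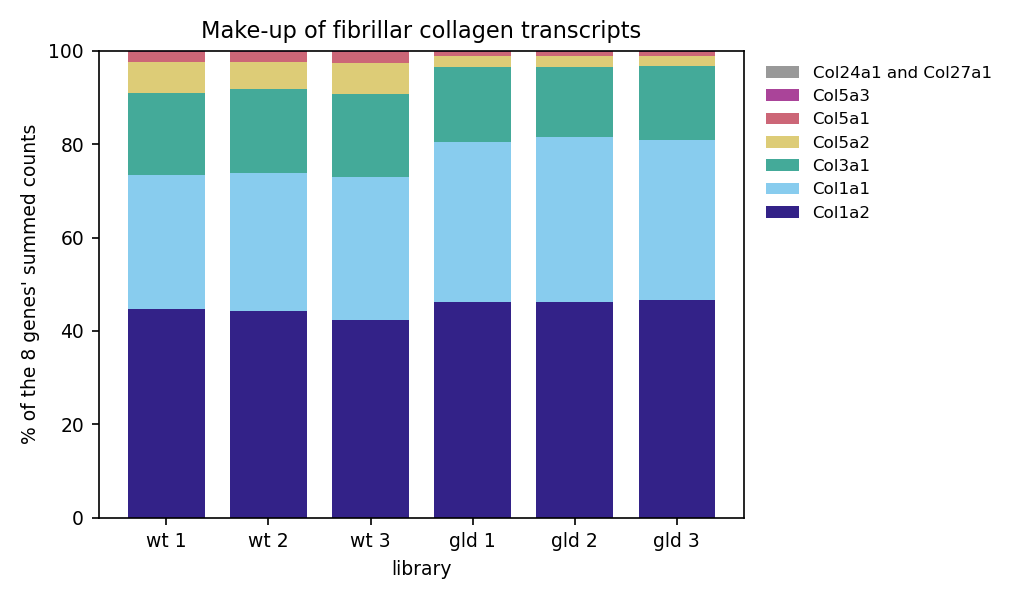
Share of each gene in the summed counts of the 8 fibrillar collagen genes, in % per library, stacked to 100. The Col5a1 and Col5a2 layers are thinner in all 3 gld libraries, and both collagen I layers are thicker; Col5a3, Col24a1 and Col27a1 are too small to see.

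Ratios of chains within a library need no scaling between libraries. Of 9 pairs listed, 7 had at least 10 counts of both chains in every library. The ratio of Col1a1 to Col1a2 was 0.640, 0.665 and 0.718 in wt and 0.740, 0.763 and 0.735 in gld. Fewer tags were thus counted for the α1 than for the α2 gene in every library, although collagen I molecules usually hold more α1 than α2 chains, and tags were not calibrated between genes. In gld the ratio was 1.11-fold higher, a log2 difference of 0.15, with no overlap between the groups.

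Relative to Col1a1, the collagen III and V chains were lower in gld. Col3a1 stood at 0.607, 0.606 and 0.585 tags per Col1a1 tag in wt and at 0.472, 0.422 and 0.459 in gld, 1.33-fold lower. The ratio of Col1a2 to Col3a1 was 2.48 ± 0.10 in wt and 2.98 ± 0.12 in gld (SD, n = 3), 1.20-fold higher. Both collagen I genes therefore exceeded Col3a1 by more in gld, with no overlap between the groups. The two-sided exact permutation test gave p = 0.1 for both ratios, the lowest that 3 against 3 libraries allow.

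Collagen V shifted further against collagen I. Col5a1 per Col1a1 was 0.0688, 0.0739 and 0.0758 in wt and 0.0261, 0.0267 and 0.0269 in gld, 2.74-fold lower. Col5a2 per Col1a1 was 0.236, 0.198 and 0.215 in wt and 0.0686, 0.0659 and 0.0657 in gld, 3.23-fold lower. A gene that does not change would show such a shift too, because Col1a1 itself rose. Over 6029 genes with at least 10 counts in every library, the ratio to Col1a1 did not overlap between groups for 92.1%, and the median log2 difference was −1.88 (quartiles −2.24 and −1.51). Set against this, Col5a2 at −1.69 lay between the quartiles and Col5a1 at −1.45 just above the upper one, with 64.4% and 77.9% of genes lower, whereas Col3a1 at −0.41 and Col1a2 at −0.15 lay above 96.6% and 97.7% of genes.

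Within collagen V the chains moved little against each other. Col5a1 per Col5a2 was 0.292, 0.374 and 0.352 in wt and 0.380, 0.405 and 0.410 in gld, without overlap and 1.18-fold higher. Col5a3 per Col5a1 was 0.168, 0.0903 and 0.122 in wt and 0.170, 0.121 and 0.116 in gld, with overlap, at p = 0.8 in the two-sided exact permutation test. For the other 6 pairs the exact permutation test gave p = 0.1, or 0.117 adjusted over the 7 pairs, and 3 against 3 libraries cannot give less than 0.1. Such separation was common, as the ratio to Col1a1 did not overlap between groups for 92.1% of 6029 genes. No share over other genes was computed for Col5a1 per Col5a2 or Col1a2 per Col3a1. The other 2 pairs, Col24a1 and Col27a1 against Col1a1, had as few as 2 and 3 counts in wt 1 and were not tested. Their log2 differences were −1.16 for Col24a1 without overlap and 1.22 for Col27a1 with overlap between the groups. Both lay above −1.51, the upper quartile over genes with at least 10 counts in every library, a set that excludes these 2 genes.

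**Figure D4:**
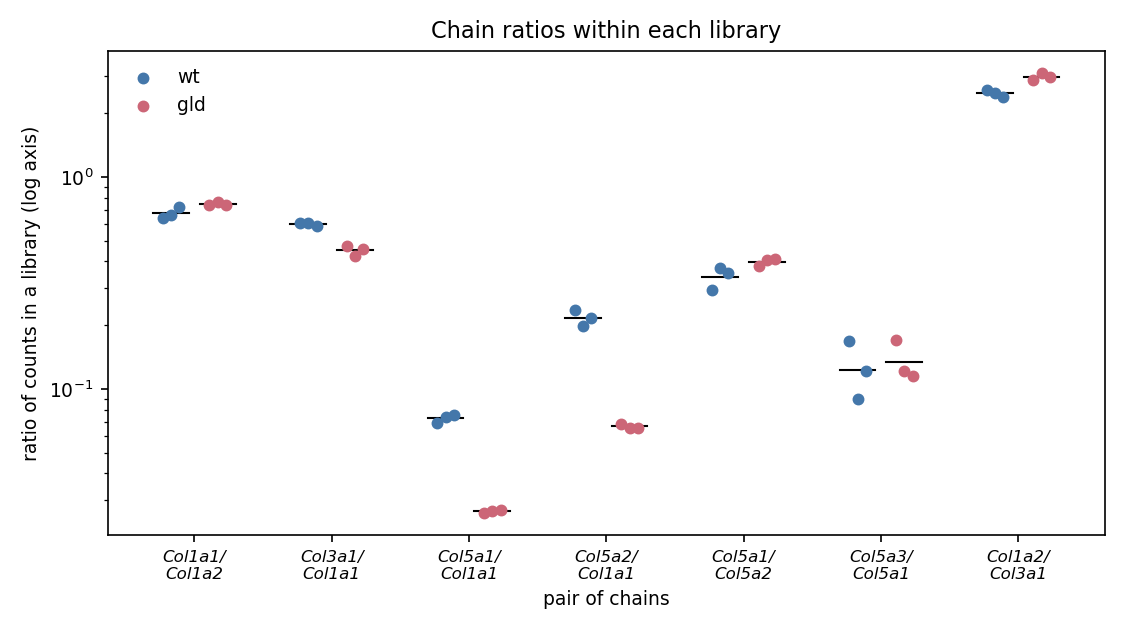
Ratio of the counts of a pair of chains in each library on a log axis, wt in blue, gld in red, with black lines at the geometric mean. Col5a1/Col1a1 and Col5a2/Col1a1 show the widest gap between the groups, 2.74-fold and 3.23-fold, and Col5a3/Col5a1 overlaps.

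Among genes with a mean normalized count of at least 50, those whose pattern over the 6 libraries was nearest to that of Col1a1 were found by the root mean square distance between centred log2(CPM + 1) values. Among the 8 genes Col1a2 was nearest, at 0.09, nearer than any gene outside the 8, and Col3a1 followed at 0.21 with 28 other genes nearer. The collagen V genes were at 0.72 to 0.85, with 821 to 1492 genes nearer. Outside the 8, the nearest were Zfp703, Col6a2, a collagen VI chain, 1190002N15Rik, Cdh11, the osteoblast cadherin, and Pcdhb22, at distances of 0.09 to 0.13. Because the libraries fall into a pair of groups, this distance measures mainly how close the group difference is to that of Col1a1.

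Sequence around the genes was examined for features that the choice of members did not use. The miR-29 family, a group of microRNAs known to repress collagen and other matrix transcripts, is shown because its targets include many of these genes. Its 3 mature members share the seed, bases 2 to 8, which is in capitals (RefSeq, GRCm38.p6):
mmu-miR-29a-3p: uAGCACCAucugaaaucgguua
mmu-miR-29b-3p: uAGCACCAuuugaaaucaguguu
mmu-miR-29c-3p: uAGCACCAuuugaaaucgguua

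The match to the seed, TGGTGCT, was searched on the transcript strand in the 3′ untranslated region of each gene's principal transcript (GENCODE M21, GRCm38). It was found in 7 of the 8 genes: 4 times in Col5a1, 3 times in Col5a3, and 1 time each in Col1a1, Col3a1, Col5a2, Col24a1 and Col27a1. In Col1a2 these letters were not present in the 882 bases searched. Among 7414 protein-coding genes with a region of 785 to 2498 bases, the range of the 8 genes, 13.73% held the match and 1.48% held it at least 2 times. Over the 8 genes 6 of 12 matches are followed by an A, the base opposite the microRNA's first that strengthens a site. Of these 6, those in Col1a1, Col3a1, Col5a1 and Col5a2 are shown, with the seed match in capitals:
Col1a1 (chr11:94952524-94952545, plus strand): tgggaaggaatttcTGGTGCTa
Col3a1 (chr1:45348968-45348989, plus strand): tcaaaatgtctcaaTGGTGCTa
Col5a2 (chr1:45374965-45374986, minus strand): ttttcttttaatgaTGGTGCTa
Col5a1 (chr2:28038020-28038041, plus strand): acacttgtctcttgTGGTGCTa
Col5a1 (chr2:28038336-28038357, plus strand): ttgctgaatgtttgTGGTGCTa
The other 2 matches in Col5a1 are not followed by an A. Of the genes that rose, Col1a1, Col3a1 and Col27a1 held the match and Col1a2 did not, and the genes that did not pass all held it. Other kinds of site and other transcripts were not searched, so Col1a2 may hold a site that was missed. The part of miR-29 in these levels was not tested. Mature miR-29 is not measured by these libraries.

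Promoters were taken from RefSeq (GRCm38.p6), from 250 bases before to 50 after the start site, which was given for 6 of the 8 genes and not for Col1a1 and Col5a2. CCAAT, bound by the factor NF-Y, GGGCGG, a GC box bound by Sp1, and TATAAA were searched on both strands; none of the 3 overlap each other in these windows. Over 32851 promoters of the same length, 37.4% held CCAAT, 35.7% GGGCGG and 13.6% TATAAA. The promoters of Col1a2 and Col3a1, which rose, and of Col5a1, which did not pass, are shown with the matches in capitals:
Col1a2 (chr6:4505368-4505667, plus strand): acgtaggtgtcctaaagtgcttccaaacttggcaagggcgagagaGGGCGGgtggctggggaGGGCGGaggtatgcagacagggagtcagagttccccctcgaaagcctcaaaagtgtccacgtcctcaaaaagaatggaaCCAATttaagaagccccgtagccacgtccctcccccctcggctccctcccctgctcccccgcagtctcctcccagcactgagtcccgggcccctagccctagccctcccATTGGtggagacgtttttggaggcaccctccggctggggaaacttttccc
Col3a1 (chr1:45311288-45311587, plus strand): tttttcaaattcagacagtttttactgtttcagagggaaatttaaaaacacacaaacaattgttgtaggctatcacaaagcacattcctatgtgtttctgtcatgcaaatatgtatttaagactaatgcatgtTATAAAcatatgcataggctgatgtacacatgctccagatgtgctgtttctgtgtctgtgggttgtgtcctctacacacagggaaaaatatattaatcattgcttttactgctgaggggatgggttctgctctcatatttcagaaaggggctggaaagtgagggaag
Col5a1 (chr2:27886175-27886474, plus strand): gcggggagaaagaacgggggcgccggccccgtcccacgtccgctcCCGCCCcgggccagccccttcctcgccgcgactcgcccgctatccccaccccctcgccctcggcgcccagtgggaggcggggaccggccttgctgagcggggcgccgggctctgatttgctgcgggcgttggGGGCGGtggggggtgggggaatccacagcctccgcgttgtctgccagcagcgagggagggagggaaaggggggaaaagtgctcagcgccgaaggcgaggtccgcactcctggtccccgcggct

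Col1a2 held 2 CCAAT and 2 GGGCGG matches, and its RefSeq start lies 125 bases downstream of that of the principal GENCODE transcript. Relative to the RefSeq start, its CCAAT matches begin at base −109 and, on the opposite strand, at base 1. Col3a1 held 1 TATAAA, which begins at base −117, and none of the others, in a window of 37.7% G and C. Col5a1 held 2 GGGCGG matches in a window of 75.0% G and C, and Col1a2 had 61.0%. Of those not shown, Col5a3 held 1 CCAAT and 3 GGGCGG, Col27a1 held 2 GGGCGG and Col24a1 held none. Within these windows Col1a2 and Col3a1 had none of the 3 motifs in common. Motifs outside a window, or near another start site, were not searched for. The part of these motifs in the levels was not tested.

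Genes that act on fibrillar collagens after or before transcription were read from the same fit, by role. Of 99 listed, 61 could be tested, 21 rose, 6 fell and 34 did not pass, so 44.3% were called beside 17.4% of all tested genes. The lists were chosen with earlier results of these data known, so this difference in shares is a description and not a test. Their median log2 fold change was 0.26. Another 15 were listed at 0 in every library, among them the collagen chaperone gene Serpinh1, and 23 had too few counts. For Serpinh1 4.3% of the 3′ end belongs to 1 transcript alone, so its 0 is not read as absence.

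**Figure D5:**
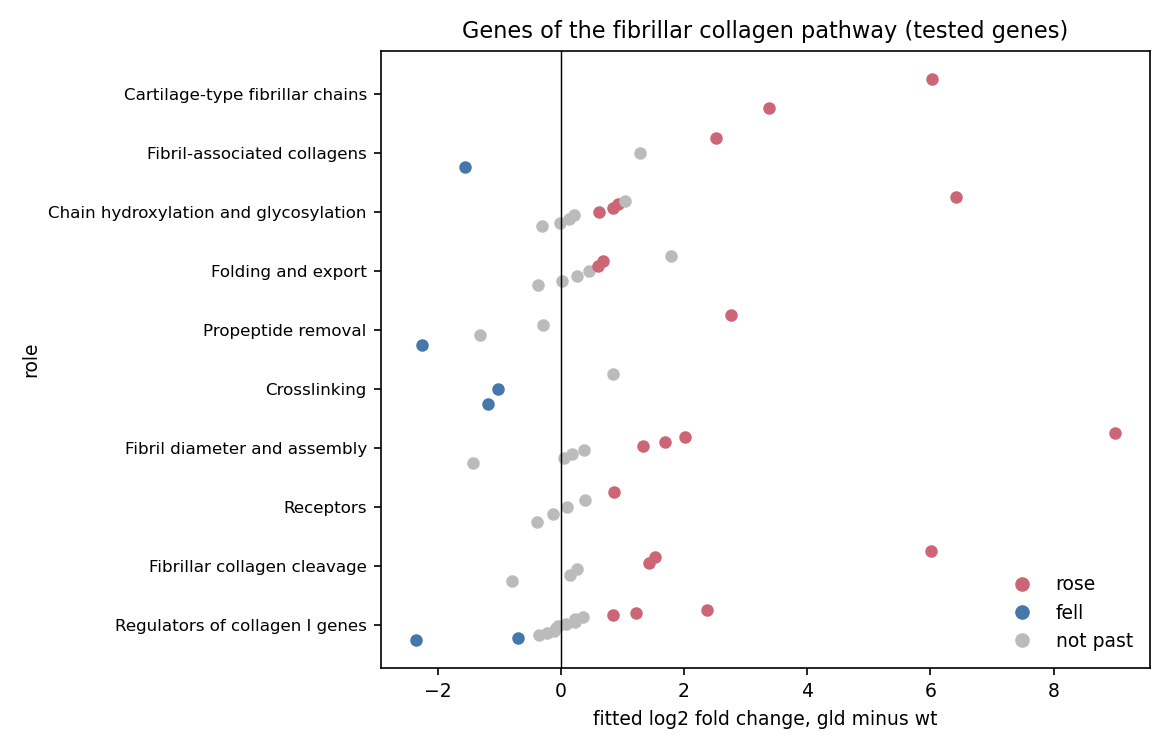
Fitted log2 fold change, gld minus wt, of each tested gene by role, red for genes that rose, blue for genes that fell and grey for genes that did not pass. Both called crosslinking genes lie below 0 and the called hydroxylation, export, assembly, receptor and cleavage genes lie above it; values for genes with almost no wt count, such as Plod2 and Kera, the point farthest to the right, depend on the prior count.

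The cartilage-type fibrillar chains rose in both tested cases of 3. Col11a1, which copolymerises with collagen V and II chains, had 37, 59 and 42 counts for wt against 641, 736 and 748 for gld, a log2 fold change of 3.38 ± 0.22 (SE, edgeR adjusted p = 6.86e-08). Col11a2, which is also on the chondrocyte marker list, had 0, 7 and 7 counts for wt against 424, 343 and 607 for gld, or 6.02 ± 0.43 (edgeR adjusted p = 1.57e-07). Col2a1, the main cartilage chain, had 9 counts in gld 1 and none elsewhere. Fibril-associated collagens, which bind to the fibril surface, went both ways: of 3 tested of 5, Col14a1 rose by 2.51 ± 0.19 (edgeR adjusted p = 2.89e-07) and Col12a1 had a log2 fold change of −1.56 ± 0.24 (edgeR adjusted p = 0.000323).

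Of 9 tested genes of 14 that hydroxylate or glycosylate the chains, 4 rose and 5 did not pass. The lysyl hydroxylase gene Plod2 had 1, 0 and 0 counts for wt against 73, 62 and 28 for gld, a pooled ratio of 109.95 with a 95% exact counting interval of 19.5 to 4369 (edgeR adjusted p = 0.000753). P4hb, the β subunit of prolyl 4-hydroxylase, rose by 0.93 ± 0.20 (SE, edgeR adjusted p = 0.00481). Plod1, another lysyl hydroxylase, rose by 0.62 ± 0.17 (edgeR adjusted p = 0.0179), a call that was lost without wt 1 (0.0728), wt 3 (0.0863), gld 1 (0.0968) or gld 3 (0.060) and with scaling by library size alone (0.0664).

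Folding and export genes gave 2 that rose and 5 that did not pass, of 7 tested of 14. Pdia3, a disulfide isomerase, rose by 0.69 ± 0.18 (edgeR adjusted p = 0.0152), and its call was lost without wt 1 (0.0808), wt 3 (0.0740) or gld 3 (0.0938). Fkbp10, a prolyl isomerase of procollagen, rose by 0.61 ± 0.16 (edgeR adjusted p = 0.0172), and its call was lost without wt 1 (0.0935) or gld 3 (0.108) and with scaling by library size alone (0.0651).

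Genes for propeptide removal went both ways, and the called crosslinking genes fell. Of 4 tested of 8 propeptide genes, Pcolce2, an enhancer of C-propeptide removal, rose by 2.76 ± 0.58 on the log2 scale, and Adamts14, an N-propeptidase, had −2.25 ± 0.49 (edgeR adjusted p of 0.00332 and 0.00468). Adamts2, the main N-propeptidase, stood at −0.29 ± 0.15 and did not pass (edgeR adjusted p = 0.21). Of 3 tested crosslinking genes of 5, 2 fell and none rose. Loxl1 went from 1276 ± 56.1 to 629.9 ± 33.7 CPM (SD, n = 3), a log2 fold change of −1.02 ± 0.10 (SE, edgeR adjusted p = 4.71e-06). Loxl2 went from 465 ± 52.5 to 206 ± 16.5 CPM, or −1.17 ± 0.13 (edgeR adjusted p = 1.41e-05).

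Of 8 tested genes of 11 that shape fibril diameter and assembly, 4 rose and 4 did not pass. Lum, a leucine-rich proteoglycan of fibrils, went from 826 ± 102 to 3336 ± 240.4 CPM (edgeR adjusted p = 1.35e-08), Fmod, a related proteoglycan that is also on the tendon list, from 233 ± 48.7 to 588 ± 19.4 CPM (1.47e-05) and Dpt, a small matrix protein, from 38.4 ± 8.86 to 124 ± 17.9 CPM (5.74e-05; SD, n = 3). Of 5 tested receptors of 10, only Itga1, the α1 subunit of a collagen-binding integrin, was called, with a log2 fold change of 0.87 ± 0.14 (SE, edgeR adjusted p = 0.000313), while its partner Itgb1 had −0.13 ± 0.10 (edgeR adjusted p = 0.48).

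Genes for cleavage of fibrillar collagen gave 3 that rose and 3 that did not pass, of 6 tested of 8. Ctsk, a collagen-degrading cathepsin that is also on the macrophage and osteoclast list, rose by 1.43 ± 0.13, and Mmp13, a collagenase, by 1.53 ± 0.20, both as log2 fold changes (edgeR adjusted p of 1.53e-06 and 5.58e-05). Fap, a fibroblast protease, had 8, 0 and 0 counts for wt against 187, 216 and 452 for gld (edgeR adjusted p = 3.35e-05), so its fold rests on wt 1, with a fitted log2 value of 6.01 and of 10.97 without that library. Of 14 tested regulators of 21, 3 rose, 2 fell and 9 did not pass. Tgfb2 and Tgfb3, ligands that induce collagen I transcription, rose by 2.37 ± 0.18 and 1.22 ± 0.16, and Twist2, a repressor of osteoblast differentiation, had −2.34 ± 0.18, with 7.9e-05, for Tgfb3, as the highest edgeR adjusted p of the 3. Tgfb1, the other ligand gene of this kind on the list, did not pass at −0.23 ± 0.51 (edgeR adjusted p = 0.843). The part of these ligands in the collagen levels was not tested. Runx2, the osteoblast transcription factor, whose end is shared between transcripts, was not past at 0.35 ± 0.77 (edgeR adjusted p = 0.842).

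Markers of other cell types moved in the same libraries as collagen I and III. Of 16 macrophage and osteoclast markers 9 were tested, 8 rose and 1, Cd14, fell, and their summed level was 425 to 614 CPM in wt and 2736 to 6710 CPM in gld. Csf1r, Adgre1, Tyrobp, Fcer1g and Acp5 of that list were at 0 in every library, of which Csf1r has all of its end in a single transcript and the other 4 from 0% to 10.3%. Lyz2 made up most of the gld sum, with 1782, 2941 and 4984 CPM. Cd14, at 278, 308 and 237 CPM, and Ctsk, at 164, 182 and 169 CPM, made up most of the wt sum. C1qa, C1qb, C1qc and Laptm5 had 0 to 8 counts in wt and 334 to 1441 in gld. In gld 1, gld 2 and gld 3 the macrophage sum was 2736, 4097 and 6710 CPM, and Col1a1 was at 26094, 29246 and 26091 CPM. Of 12 chondrocyte markers 7 were tested and 6 rose, with sums of 217 to 224 CPM in wt and 1072 to 1126 CPM in gld, and Col9a1 and Col9a3, with shared ends, at 0. Sox9 made up almost all of that sum in wt, at 207, 220 and 218 CPM, and most of it in gld, at 753, 809 and 801 CPM. Tendon and suture markers gave 3 that rose and 3 that did not pass of 6 tested of 8, with sums of 420 to 556 CPM in wt and 967 to 1042 CPM in gld, and Scx, with a shared end, and Gli1, without, at 0. Smooth muscle and myofibroblast markers fell in all 4 tested of 6, with sums of 6783 to 7521 CPM in wt and 3202 to 3364 CPM in gld, and of 5 endothelial markers neither of 2 tested passed, with sums of 0.94 to 5.22 CPM in wt and 4.48 to 15.7 CPM in gld. The part of these cell types in the collagen differences was not tested.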

How the data were processed

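Per the series' design text and the labels' protocols, total RNA was made into QuantSeq 3′ mRNA-Seq FWD libraries, read as single 75 nt reads, trimmed with Cutadapt and aligned with STAR. Per the submitters' processing notes, DESeq2, FastQC and Trim Galore were used with mm10; no versions are stated. How reads were assigned to genes, on which strand and with which annotation is unstated in the labels, so reads of overlapping genes cannot be assigned with certainty. The deposited values are whole-number counts per Ensembl gene. They were analysed as deposited, without 1 row that had no identifier, and 51883 of 57180 identifiers had a symbol.

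Genes were kept by filterByExpr (about 10 counts in 3 libraries, 15 in total), scaled by TMM and tested with edgeR 4.0.16 (quasi-likelihood, R 4.3.3, all 6 libraries, no covariate, Benjamini-Hochberg over all genes, adjusted p 0.05, two-sided). A standard error is |log2 fold change| over √F. DESeq2 1.42.0, limma-voom (limma 3.58.1), other scalings, no filter, the replicate block and leaving out each library were tried. The code was tested on simulated data. Counting intervals cover counting error only. All members were named, and from each role up to 3 called genes by adjusted p, or up to 1 as a value where none was called. Adamts2, Itgb1, Runx2, Tgfb1, Serpinh1, Col2a1, Lox, Loxl3, Bmp1, Pcolce and the overlapping gene models were added after their values were seen. The members and lists were chosen with earlier results of these data known.

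Same-numbered wt and gld libraries were not correlated in their deviations from the group means (−0.022, −0.011 and −0.019), so the numbers were not taken as pairs. Replicates differed beyond counting noise, with a chi-square per degree of freedom from 6.44 to 14.98.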

Additional observations from a re-analysis of the deposited data

How the results depend on the processing

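The counts of genes called higher or lower stayed within 1.5 times of those reported under every alternative run (edgeR with DESeq2's size factors, library size alone or TMM without collagen genes, DESeq2, limma-voom, no filter on low counts, and without each library), for all genes, for the 8 collagen genes and for the pathway genes. Scaling by library size alone gave 720 genes higher and 975 lower in place of 847 and 668. With the replicate block edgeR called 760 genes higher and 599 lower and the same number of the 8 genes, 4, with Col1a1 at 1.85; the numbers mark no known pairing. Leaving out each library gave 684 to 867 genes higher and 504 to 605 lower, 3 to 5 of the 8 collagen genes higher, and 17 to 23 pathway genes higher. Leaving collagen genes out of the scaling moved Col1a1 from 1.83 to 1.84. The log2 fold change of the 8 genes' sum ran from 1.52 to 1.79 over left-out libraries.

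The log2 difference of Col5a3 per Col5a1 was −0.10 without wt 2 and −0.05 without gld 1, against 0.12 with all libraries, and 0.35 at the other end of the range; the cause was not tested. All other chain ratios kept their sign under every alternative run. Col5a2 was at −0.00053 with library size alone, by the shift of all genes under that scaling. Few counts limit Col24a1, with 2 to 17 in a library, and Col27a1 in wt; whether depth or the assignment of reads at shared transcript ends keeps Col24a1 low was not tested.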
